A study of Mus musculus with 5 samples.

Results

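Fibroblast growth factors (FGFs) and their receptor tyrosine kinases were read in hair follicle stem cells sorted from mouse back skin, through 10 genes taken by symbol from the 55357 genes of the deposited table. The set holds 6 ligand-family genes (Fgf1, Fgf2, Fgf5, Fgf11, Fgf18 and Fgf22) and 4 receptor genes (Fgfr1, Fgfr2, Fgfr3 and Fgfr4). Of these 10 genes, 9 had at least 1 read and 8 had enough reads to be tested. The comparison was between 2 Control libraries, from mice that were Ring1a-/- with Ring1b flox/flox alleles, and 3 PRC1 i2KO libraries, from mice with the same alleles plus K15-CrePR1, in which a keratin 15 promoter drives a Cre recombinase that RU-486 switches on. Ring1a was thus missing from both groups, and no group with intact Ring1a was analysed here. All mice received 1% RU-486 on the skin once a day for 10 days from postnatal day 50, and the skin was taken 15 days after the last treatment, at postnatal day 75. Cells were sorted for EpCAM, high α6-integrin and CD34 and against Sca1, and 50000 of them went into each RNA sample. Replicate numbers are those of the titles, 1 and 3 for Control and 1, 2 and 3 for PRC1 i2KO. Whether each library is a different animal is not in the labels, so the spread behind each p-value is that of these samples and may be technical.

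Secreted FGFs bind receptor tyrosine kinases together with heparan sulfate chains on the cell surface, and the receptors signal through the adaptor Frs2 to Ras and the ERK kinases. ERK activity in turn raises transcripts of feedback inhibitors such as the Sprouty and dual-specificity phosphatase genes. In skin, FGF18 is known as a signal that holds hair follicles in their resting phase, FGF5 as a signal that ends hair growth, and FGF7 and FGF10 as dermal ligands of the epithelial form of FGFR2. Not every family member is a ligand in this sense: FGF11 belongs to the FGF homologous factors, which stay inside the cell.

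Depth ranged from 8270419 to 32463173 estimated reads per library. Rnf2, which encodes Ring1b, stood at 67.9 and 57.7 CPM (reads scaled to a common library size) in the controls and between 46.6 and 50.2 CPM in PRC1 i2KO. Its log2 fold change was -0.37 (edgeR adjusted p = 0.0363). Ring1, which encodes Ring1a, was at 27.5 to 30.3 CPM in the controls, against 19.6 to 28.6 CPM (log2 fold change -0.24, edgeR adjusted p = 0.36). Deleting an exon can leave reads from the rest of a gene, so the level of neither gene checks the genotype. Across all 15665 tested genes, 33.9% passed the threshold used throughout, an adjusted p under 0.05 in edgeR's quasi-likelihood test. Of these genes 2939 were higher and 2371 lower in PRC1 i2KO. Limma on log2(TPM + 1), another test on another set of 16117 genes, called 1696 higher and 2054 lower. Its fold changes differed from those of edgeR by a median of -0.157 (log2). Markers of the sorted population were present but lower, with 7 of 10 bulge markers called lower and their summed level between 31320 and 35660 CPM in the controls, against 14070 to 19470 CPM. Cd34, one of the sort markers, was at 1548 and 1697 CPM in the controls, against 11.0, 12.3 and 37.2 CPM in PRC1 i2KO replicates 1, 2 and 3. Itga6, which encodes the α6-integrin of the sort, was not called, at 413 and 464 CPM in the controls against 374, 411 and 363 CPM (log2 fold change -0.20, edgeR adjusted p = 0.186). Ly6a, which encodes the Sca1 sorted against, is named after its values were seen. It was at 0 and 0.50 CPM in the controls, below all PRC1 i2KO libraries at 2.28, 0.71 and 2.26 CPM, and was not called (log2 fold change 2.44, edgeR adjusted p = 0.108). PRC1 i2KO replicate 3 lay nearest to the controls for Cd34, and so it did for several FGF genes described next.

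Of 6 FGF ligand-family and 4 receptor genes, 3 of each were lower in PRC1 i2KO, with the intracellular Fgf11 counted in the family. Fgf18 fell 40.9-fold, Fgf1 fell 3.94-fold, Fgfr3 fell 2.49-fold, Fgfr1 fell 1.85-fold, Fgf11 fell 1.74-fold and Fgfr2 fell 1.46-fold. Fgf2 and Fgf22 did not pass the test, and Fgf5 and Fgfr4 had too few reads to be tested. In all, 6 of the 8 tested genes were called lower and 0 higher (also 0 by DESeq2, and all 6 genes with an unadjusted p under 0.05 were lower), where 15.1% of all tested genes were called lower and 18.8% higher. The median log2 fold change was -0.84 over the 8 genes and -0.01 over all tested genes. In 7 of the 8, every PRC1 i2KO library lay below both controls, which held for 29.4% of all tested genes. The members were chosen with earlier results of these data known, so these shares are a description. Fgf13, the only other ligand-family gene tested, lies outside the set. It was higher in every PRC1 i2KO library without passing the test (log2 fold change 1.72, edgeR adjusted p = 0.0918). In RNA from a sorted population, fewer cells of a type and less RNA per cell cannot be told apart.

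**Figure D1:**
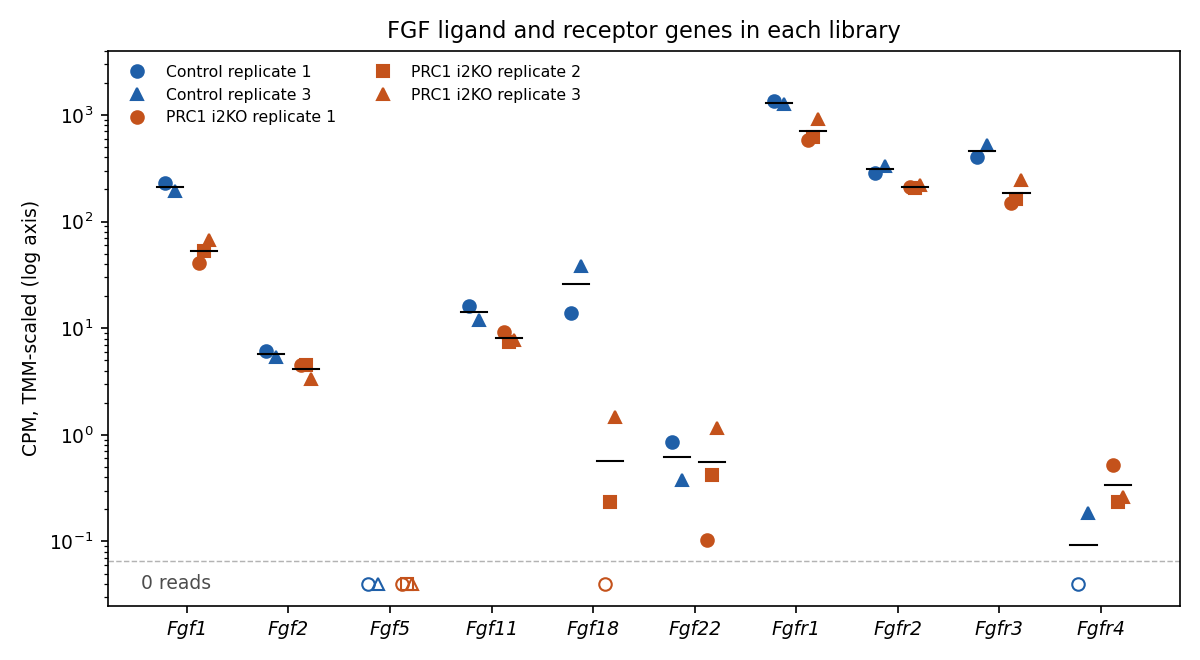
CPM of each of the 10 genes in each library (log axis; blue Control, orange PRC1 i2KO; bars are group means; open symbols at the bottom mark 0 reads). The 3 PRC1 i2KO libraries sit below both controls for Fgf1, Fgf2, Fgf11, Fgf18, Fgfr1, Fgfr2 and Fgfr3, and Fgf5 had 0 reads in every library.

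Fgf18 (ENSMUSG00000057967) showed the deepest fall of the set and ranked 42 from the bottom among all 15665 fold changes. It had 112 and 1233 reads in Control replicates 1 and 3, or 13.8 and 38.3 CPM. PRC1 i2KO replicates 1, 2 and 3 held 0, 5 and 28 reads, or 0, 0.24 and 1.47 CPM. The groups did not overlap, but the controls themselves differed, and PRC1 i2KO replicate 3 held most of the reads left in its group. The log2 fold change was -5.36 (SE 1.01, 95% interval -7.98 to -2.73, edgeR adjusted p = 0.0153). Leaving out Control replicate 3 gave -4.46 and ended the call (edgeR adjusted p = 0.063), and leaving out PRC1 i2KO replicate 3 gave -7.33; without a filter on low counts the call was also lost (edgeR adjusted p = 0.0785).

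Fgf18 has been described in the inner layer of the resting bulge, which is marked by keratin 6. Of the 5 keratins listed for that layer, Krt6a, Krt6b and Krt75 fell with Fgf18, while Krt16 and Krt17, which are also keratins of activated epidermis, rose. Krt6a stood at 738 and 807 CPM in the controls, against 82.7, 97.0 and 132 CPM in PRC1 i2KO, a 7.42-fold fall (edgeR adjusted p = 2.35e-05). Krt75 fell 5.38-fold and Krt6b fell 5.86-fold. Krt17 rose 6.04-fold (edgeR adjusted p = 0.000298) and Krt16 rose 4.79-fold (edgeR adjusted p = 6.55e-05). The summed level of the whole list was 1179 and 1299 CPM in the controls, against 2375 to 3089 CPM in PRC1 i2KO, carried by Krt17, and none of its genes was at 0 in any group. The part of these cells in the fall of Fgf18 was not tested.

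The annotated promoter windows of the ligand family differ in CpG content, the sequence feature at which Polycomb complexes are known to gather in mammals. The RefSeq promoter table (GRCm38.p6, another build than the mm39 of the deposited counts) held 8 of the 10 genes, Fgf1 and Fgfr1 not being among them. Counted over the 250 bases before the annotated start, with CG read as the motif (its own reverse complement, so both strands are covered), the median of 32851 windows was 6 and 92.1% held at least 1. The 3 ligand-family windows that overlap no annotated exon are shown, 5′ to 3′ on the gene's strand with each CG in capitals, to set side by side the gene with the deepest fall, the gene with 0 reads and a gene with a moderate fall.
Fgf18, chr11:33147401-33147650, minus strand: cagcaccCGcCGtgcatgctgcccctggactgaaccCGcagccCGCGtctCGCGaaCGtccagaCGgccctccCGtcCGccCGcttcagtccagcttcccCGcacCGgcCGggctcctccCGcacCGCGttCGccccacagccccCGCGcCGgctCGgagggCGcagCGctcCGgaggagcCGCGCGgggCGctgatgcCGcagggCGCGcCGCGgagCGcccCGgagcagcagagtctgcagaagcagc
Fgf5, chr5:98253934-98254183, plus strand: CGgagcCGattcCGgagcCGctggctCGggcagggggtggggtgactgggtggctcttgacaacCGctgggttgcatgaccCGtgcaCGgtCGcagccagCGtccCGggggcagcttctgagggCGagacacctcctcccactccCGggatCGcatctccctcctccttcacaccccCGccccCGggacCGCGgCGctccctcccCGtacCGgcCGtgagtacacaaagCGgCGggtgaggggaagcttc
Fgf11, chr11:69802281-69802530, minus strand: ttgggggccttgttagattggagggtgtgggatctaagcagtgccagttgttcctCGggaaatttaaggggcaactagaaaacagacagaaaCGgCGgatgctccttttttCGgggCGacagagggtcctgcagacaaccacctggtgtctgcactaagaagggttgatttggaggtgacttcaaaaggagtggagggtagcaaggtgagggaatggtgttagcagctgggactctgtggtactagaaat
The Fgf18 window held 37 CG, more than 97.8% of all windows, the Fgf5 window 24 (more than 88.0%) and the Fgf11 window 5 (more than 44.4%). Among the others, the windows of Fgf2, Fgf22 and Fgfr4 held 20, 15 and 15, the Fgfr3 windows 19 and 24, and the Fgfr2 window 2. The most CG-rich window and the most CG-poor one thus both belonged to genes that fell, and the Fgf5 window, which with 1 of the Fgfr3 windows came next after that of Fgf18, belonged to a gene without a read. The Fgf11 and Fgfr2 windows, those with the fewest CG, did not match the start of a GENCODE M21 transcript. All the other windows did, and they held 15 to 37 CG. The CG-poor end therefore rests on windows without a matched start, and which starts these cells use was not measured. No histone mark was measured here, so these counts describe sequence only.

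Fgf1 (ENSMUSG00000036585), a ligand able to bind every FGF receptor, was the most abundant ligand transcript in all 5 libraries per gene length. It stood at 231 CPM in Control replicate 1 and 192 CPM in Control replicate 3, while PRC1 i2KO replicates 1, 2 and 3 were at 40.8, 52.5 and 66.9 CPM. The lowest control was well above the highest PRC1 i2KO library. Its log2 fold change was -1.98 (SE 0.20, 95% interval -2.44 to -1.52, edgeR adjusted p = 0.00028), and 3.11% of tested genes had a lower fold change. The call was kept in all 13 alternatives, with values between -2.16 and -1.81.

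Fgf11 (ENSMUSG00000042826), the intracellular member, stood at 16.2 and 12.0 CPM in the controls, against 9.22, 7.38 and 7.69 CPM in PRC1 i2KO. The groups were separate, though Control replicate 3 lay closer to PRC1 i2KO replicate 1 than to the other control. Its log2 fold change was -0.80 (SE 0.25, 95% interval -1.36 to -0.24, edgeR adjusted p = 0.0331). That call rested on single libraries: the edgeR adjusted p was 0.22 with Control replicate 1 left out and 0.102 with PRC1 i2KO replicate 2 left out, and it was 0.064 with limma on log2(TPM + 1) (0.0665 with a pseudocount of 0.1).

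Fgf2 (ENSMUSG00000037225), the basic FGF that lacks a classical secretion signal, was low in every library. The controls read 6.15 and 5.38 CPM, and PRC1 i2KO replicates 1, 2 and 3 read 4.56, 4.51 and 3.37 CPM. All 3 lay below both controls, yet the test did not pass (log2 fold change -0.47, 95% interval -1.21 to 0.27, edgeR adjusted p = 0.309). That interval allows a fall of the size seen in Fgf11 or Fgfr2 as well as no change.

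Fgf22 (ENSMUSG00000020327), a relative of FGF7 and FGF10 known from epidermis, was near the limit of detection. Its 7 and 12 reads in Control replicates 1 and 3 and 1, 9 and 22 reads in PRC1 i2KO replicates 1, 2 and 3 correspond to 0.86 and 0.37 CPM and to 0.10, 0.42 and 1.16 CPM. The groups overlapped, and the highest and the lowest library were both PRC1 i2KO. The log2 fold change of 0.01 had a 95% interval of -2.18 to 2.20 (edgeR adjusted p = 0.995), which allows a difference of up to about that size in either direction. Fgf5 (ENSMUSG00000029337) had 0 reads in all 5 libraries. Such a count allows up to 0.0745 CPM in the controls and 0.0601 CPM in PRC1 i2KO (3 reads summed over each group, counting error only).

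Among the receptors, Fgfr1, Fgfr2 and Fgfr3 all fell, and Fgfr3 fell most by point estimate. These 3 genes each make an epithelial and a mesenchymal form by splicing of the third immunoglobulin domain, which gene-level counts pool. Fgfr3 (ENSMUSG00000054252) stood at 400.3 CPM in Control replicate 1 and 523 CPM in Control replicate 3, while PRC1 i2KO replicates 1, 2 and 3 were at 149.9, 163.5 and 243 CPM. Both controls were above every PRC1 i2KO library, of which replicate 3 was highest. Its log2 fold change was -1.31 (SE 0.23, 95% interval -1.87 to -0.76, edgeR adjusted p = 0.00593).

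Fgfr1 (ENSMUSG00000031565) was the most abundant receptor transcript, at 1344 and 1267 CPM in the controls, against 587, 623 and 911 CPM in PRC1 i2KO. Here too the groups were separate and PRC1 i2KO replicate 3 came closest to the controls. Its log2 fold change was -0.88 (SE 0.18, 95% interval -1.31 to -0.46, edgeR adjusted p = 0.00732), with an adjusted p of 0.0536 without Control replicate 1. Fgfr2 (ENSMUSG00000030849), whose epithelial form is the receptor of FGF7 and FGF10, stood at 284 and 335 CPM in the controls, against 210.2, 207.7 and 219.7 CPM in PRC1 i2KO. Both controls lay above all 3 PRC1 i2KO libraries, which were close together at a mean of 213 ± 6.35 CPM (SD, n = 3). Its log2 fold change was -0.54 (SE 0.10, 95% interval -0.78 to -0.31, edgeR adjusted p = 0.00329), the smallest change called in the set. The intervals of Fgfr1, Fgfr2 and Fgfr3 overlapped, and differences between receptors in their fold change were not tested.

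Fgfr4 (ENSMUSG00000005320) was barely detected, with 0 and 6 reads in Control replicates 1 and 3 and 5, 5 and 5 reads in PRC1 i2KO replicates 1, 2 and 3. Scaled to depth, these were 0 and 0.19 CPM in Control and 0.52, 0.24 and 0.26 CPM in PRC1 i2KO. Every PRC1 i2KO library thus lay above both controls, on counts too low for the test. The ratio of summed reads per scaled library, PRC1 i2KO over Control, was 2.02 with an exact 95% binomial interval of 0.74 to 6.35. That interval covers counting error only, and it holds a ratio of 1.

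**Figure D2:**
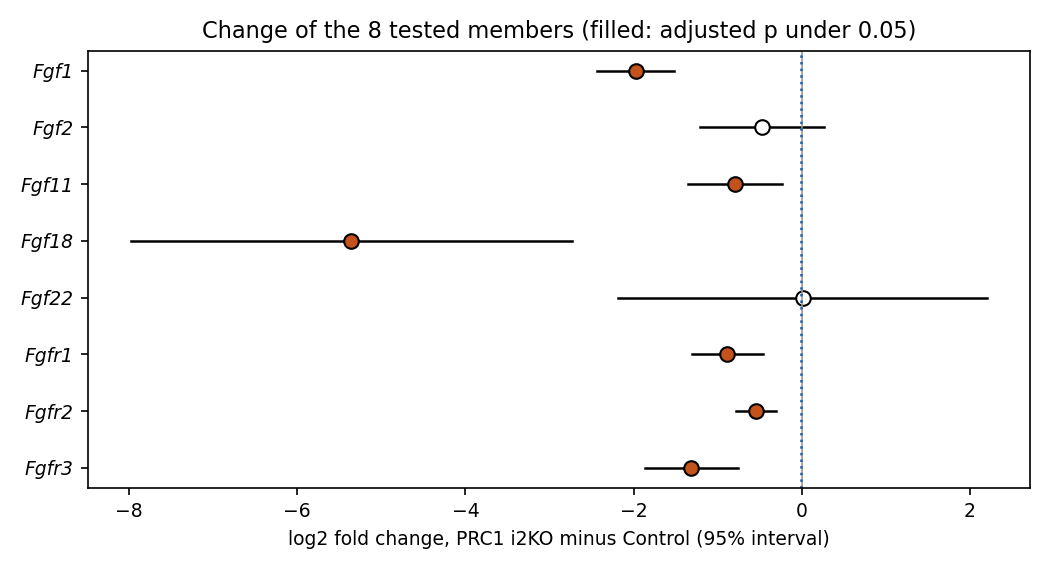
log2 fold change (PRC1 i2KO minus Control) of the 8 tested genes with 95% intervals from edgeR; filled points passed an adjusted p of 0.05, the solid line marks 0 and the dotted line the median of all tested genes. The Fgf18 point at -5.36 stands far to the left with a wide interval, and the intervals of Fgf2 and Fgf22 cross 0.

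Levels of different genes were compared on the deposited TPM, which is scaled to gene length. In Control, Fgf1 was at 103 ± 13.8 TPM and Fgf18 at 51.6 ± 34.4 TPM (SD, n = 2), followed by Fgf11 at 8.67 ± 1.94, Fgf2 at 1.71 ± 0.16 and Fgf22 at 0.64 ± 0.17 TPM. These 5 levels kept that order in both controls. In PRC1 i2KO, Fgf1 was at 23.7 ± 6.24 TPM and Fgf11 at 4.49 ± 0.68 TPM (SD, n = 3). The next values, 1.15 ± 1.60 for Fgf18, 1.09 ± 0.15 for Fgf2 and 0.64 ± 0.76 TPM for Fgf22, did not differ beyond their spread. Fgf18 made up 17.8% and 42.4% of the summed ligand-family TPM, Fgf11 included, in the 2 controls and 0 to 7.48% in PRC1 i2KO. The sum itself was 152.9 and 179.0 TPM in Control and 24.2 to 39.9 TPM in PRC1 i2KO.

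Receptor transcripts outnumbered ligand-family transcripts in every library. Their summed level was 1356 and 1424 TPM in Control and 548 to 823 TPM in PRC1 i2KO, highest in replicate 3. In Control, Fgfr1 was at 851 ± 45.4 TPM, Fgfr3 at 324 ± 62.7 TPM and Fgfr2 at 215 ± 31.3 TPM (SD, n = 2). In PRC1 i2KO the values were 401 ± 99.6 TPM for Fgfr1, 132 ± 12.4 TPM for Fgfr2 and 117 ± 41.2 TPM for Fgfr3 (SD, n = 3). Fgfr3 was above Fgfr2 in both controls, below it in PRC1 i2KO replicates 1 and 2 and above it in replicate 3, so their order in PRC1 i2KO lay within the spread. The share of Fgfr1 in the receptor sum was 61.3% ± 5.41 in Control (SD, n = 2) and 61.5% ± 0.98 in PRC1 i2KO (SD, n = 3), with groups that overlapped. The share of Fgfr3 was 23.3% ± 3.69 and 17.7% ± 2.39, and that of Fgfr2 was 15.4% ± 1.71 and 20.8% ± 3.20, with no overlap between groups for either. These shares are given as a description, without a test.

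**Figure D3:**
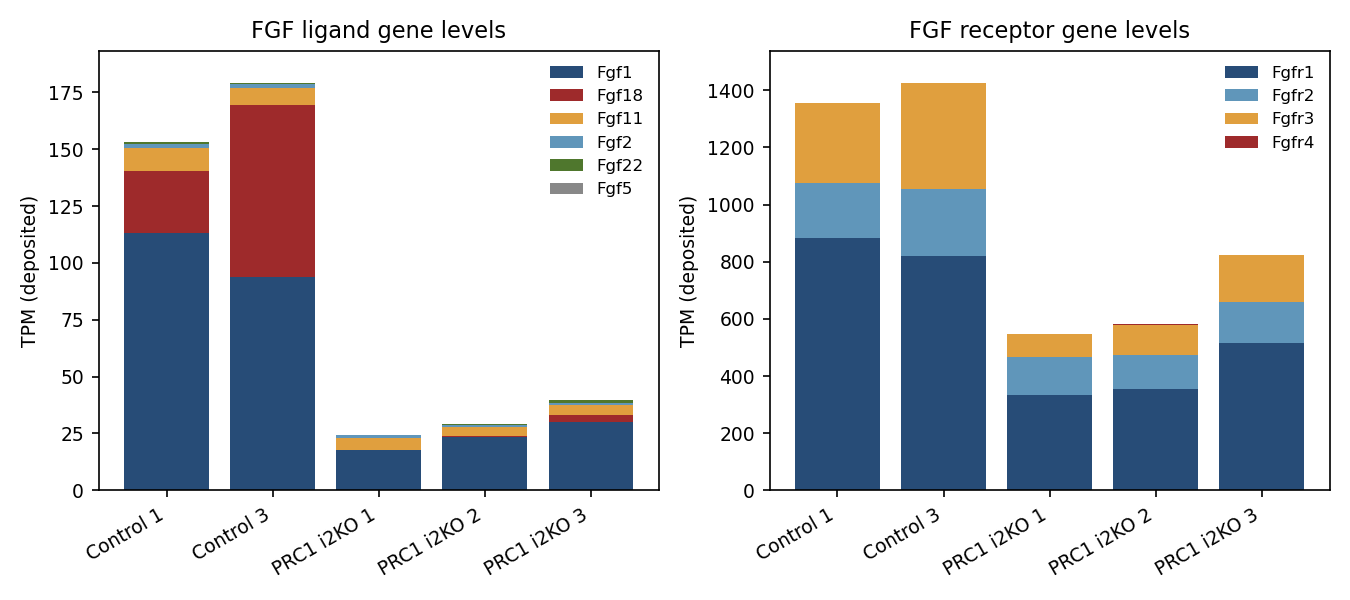
Deposited TPM of the ligand-family genes (left) and receptor genes (right), stacked for each library. Fgf1 and Fgf18 make up nearly all ligand-family transcripts in Control, where the sum reached 152.9 and 179.0 TPM. Fgf1 makes up most of the 24.2 to 39.9 TPM in PRC1 i2KO. Fgfr1 is the largest receptor part in every library.

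By a distance over the 5 libraries, the genes whose pattern was most like that of the 3 members with the largest called changes were listed. The distance was the root mean square difference of log2 CPM, each gene centred on its own mean, among 13806 tested genes whose mean reached 1 CPM. For Fgf18 they were Adra2c (0.63), S100a4 (0.64) and Sncg (0.75). S100a4, for example, went from 372 and 439 CPM in Control to 2.38, 5.6 and 12.4 CPM in PRC1 i2KO, again highest in replicate 3. For Fgf1 they were Hmcn1 (0.029), Plcl1 (0.034) and Gm7694 (0.067), and for Fgfr3 they were Celsr1 (0.050), Plxdc1 (0.055) and Zfp467 (0.066). Celsr1, a planar polarity cadherin of skin, stood at 307 and 438 CPM in the controls, against 117, 134 and 201 CPM in PRC1 i2KO. All these genes were picked on the same 5 libraries, so a shared order of replicates follows from the choice.

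The other 16 FGF ligand-family genes were almost silent in these cells. Of them 7 had 0 reads in every library, and 1, Fgf13, had enough reads for the test. Fgf13, like Fgf11 an intracellular homologous factor, was at 0.25 and 0.96 CPM in the controls, against 2.69, 2.40 and 1.63 CPM in PRC1 i2KO. It was higher in every PRC1 i2KO library but did not pass (log2 fold change 1.72, SE 0.71, edgeR adjusted p = 0.0918; DESeq2 called 0 genes of the list as well, and 1 had an unadjusted p under 0.05). Fgf7, the dermal ligand of the epithelial FGFR2, had 4 and 20 reads in Control and 0, 4 and 0 reads in PRC1 i2KO. Fgf10 had 0 and 10 reads in Control and 0, 0 and 1 in PRC1 i2KO, and neither gene was tested; both are named after their values were seen. Of the 10 fibroblast and dermal papilla markers, 6 were tested, 4 of them lower and 1 higher. The summed level of all 10 was 98.1 and 86.9 CPM in Control replicates 1 and 3, against 36.2 to 41.2 CPM in PRC1 i2KO. Sox2 was at 0 in every library and Lum at 0 in Control. Col1a2 made up most of each sum, at 60.2 and 57.2 CPM in the controls and 23.4 to 26.8 CPM in PRC1 i2KO. Dcn, the gene called higher, had 2 and 0 reads in Control and 33, 39 and 11 reads in PRC1 i2KO. Col1a2 and Dcn were picked with their levels known. Over all tested genes, 18.8% were called higher and 15.1% lower. The part of dermal cells in the changes of FGF genes was not tested.

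Genes that present FGFs to their receptors went both ways. Of 18 co-receptor and binding protein genes 15 were tested, of which 4 were higher, 7 lower and 4 not called. Over all tested genes, 18.8% were called higher and 15.1% lower. The list's median log2 fold change was -0.14. Flrt2, a membrane protein of a family that binds FGF receptors, fell 6.42-fold, with a Control mean of 208 ± 20.6 CPM (SD, n = 2) against 32.3 ± 2.31 for PRC1 i2KO (SD, n = 3; edgeR adjusted p = 5.33e-07). Fgfbp1, a secreted carrier that frees FGFs from heparan sulfate, rose 4.59-fold, with a Control mean of 27.7 ± 1.11 CPM (SD, n = 2) against 128 ± 5.04 for PRC1 i2KO (SD, n = 3; edgeR adjusted p = 1.12e-06). Among the heparan sulfate proteoglycans, Sdc2 fell 1.90-fold and Gpc1 rose 1.83-fold. Fgfrl1, a receptor relative without a kinase domain, named after its values were seen, was at 22.2 and 22.8 CPM in the controls, against 11.4, 7.48 and 16.95 CPM in PRC1 i2KO (log2 fold change -0.91, edgeR adjusted p = 0.0467).

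Enzymes that build and edit heparan sulfate were also mixed, with 4 of 15 tested genes higher, 6 lower and 5 not called (median log2 fold change -0.09). The shares over all tested genes were 18.8% higher and 15.1% lower. Extl3, a glycosyltransferase of the pathway, fell 1.76-fold. Of the extracellular sulfatases, which remove sulfate groups that FGF binding needs, Sulf2 fell 2.10-fold from 70.6 ± 7.89 CPM (SD, n = 2), while Sulf1 rose 4.22-fold to 6.08 ± 2.75 CPM (SD, n = 3). The rise of Sulf1 was not called with limma on log2(TPM + 1) (log2 change 1.04, limma adjusted p = 0.106). Hs6st2, a sulfotransferase, rose 9.85-fold from 0.46 to 3.76 CPM (log2 fold change 3.30, SE 0.70, edgeR adjusted p = 0.0053), and its size hung on the controls, at 4.28 without Control replicate 1 and 2.33 without Control replicate 3 (1.72 on log2(TPM + 1)). Leaving out Control replicate 3 or PRC1 i2KO replicate 1 left 2 genes that fell, and leaving out Control replicate 1 or PRC1 i2KO replicate 2 left 3; on TPM 1 gene rose.

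Of 22 transducers downstream of the receptors, all tested, 2 were higher, 4 were lower and 16 were not called, beside 33.9% of all tested genes called in either direction. Their median log2 fold change was -0.01. Frs2, the main adaptor, named after its values were seen, stood at 70.8 and 77.8 CPM in the controls, against 64.5, 67.8 and 58.8 CPM in PRC1 i2KO (log2 fold change -0.23, edgeR adjusted p = 0.156). Its relative Frs3 fell 2.22-fold, and that call was lost without Control replicate 3 (edgeR adjusted p = 0.262) or PRC1 i2KO replicate 2 (0.0511). Braf, a kinase between Ras and ERK, fell 1.53-fold (edgeR adjusted p = 0.00453). Hras and Map2k2 rose 1.304-fold and 1.28-fold, calls that were lost without either control, without PRC1 i2KO replicate 2 and on TPM. Leaving out replicate 1 of either group left 2 that fell, and leaving out Control replicate 3 or PRC1 i2KO replicate 2 left 1, while 4 rose without PRC1 i2KO replicate 3.

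Feedback inhibitors and target genes of FGF and ERK signalling went both ways. Of 16 tested genes 5 were higher, 3 lower and 8 not called, beside 18.8% higher and 15.1% lower over all tested genes. The list's median log2 fold change was 0.48. Dusp4, an ERK phosphatase, rose 5.49-fold, with a Control mean of 3.29 ± 0.74 CPM (SD, n = 2) against 17.5 ± 1.96 for PRC1 i2KO (SD, n = 3; edgeR adjusted p = 0.00012); on log2(TPM + 1) its log2 change was 1.84 in place of 2.46. Etv4, an ETS factor induced by FGF, rose 3.91-fold with a Control mean of 31.3 ± 2.08 CPM (SD, n = 2) against 122 ± 31.8 for PRC1 i2KO (SD, n = 3; edgeR adjusted p = 0.000481). Phlda1, another ERK-induced gene, rose 2.37-fold, whereas Spred3, an inhibitor of the Ras pathway, fell 3.39-fold. Named after their values were seen, Spry4 and Dusp5 were the other genes that rose (log2 fold changes 2.06 and 1.80), and Spred1 and Il17rd were the others that fell (-0.58 and -0.81); 5 fell without PRC1 i2KO replicate 3. Dusp6, the ERK phosphatase often read as an FGF response gene, spread widely in Control, at 333 and 104 CPM, against 438, 453 and 273 CPM in PRC1 i2KO (log2 fold change 0.84, SE 0.62, edgeR adjusted p = 0.388). These genes respond to ERK from any receptor, so their levels are not a measure of FGF signalling alone.

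**Figure D4:**
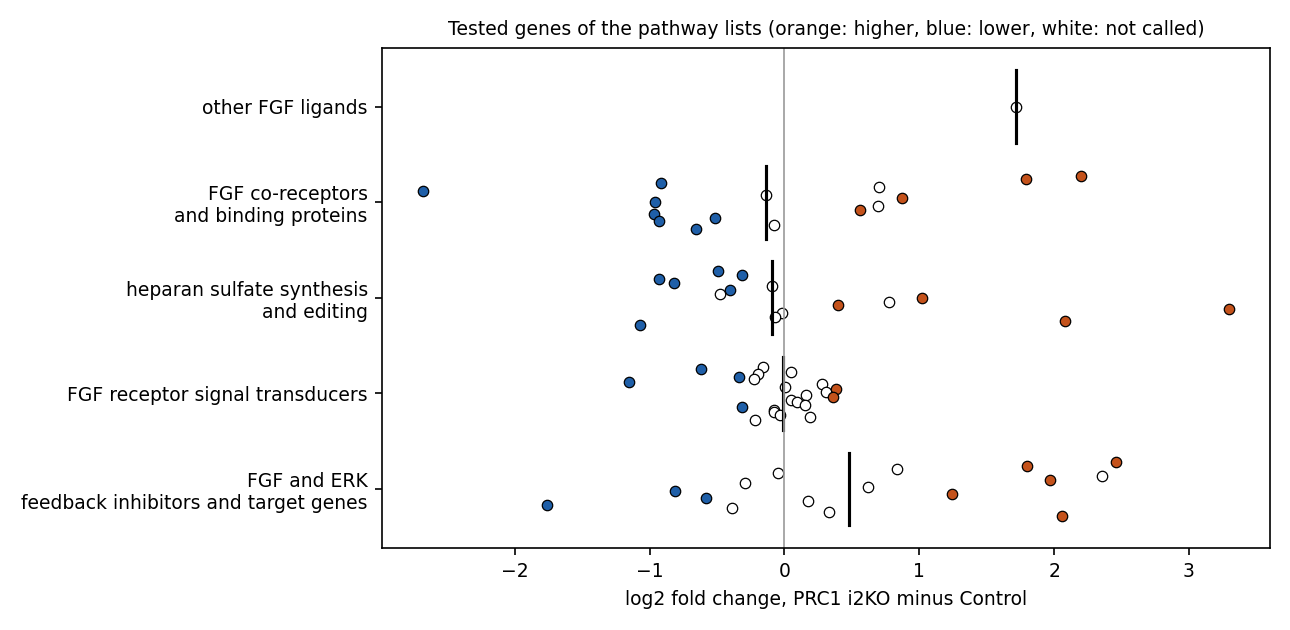
log2 fold change (PRC1 i2KO minus Control) of each tested gene in the 5 pathway lists; the vertical tick is the list's median. Orange (higher) and blue (lower) points lie on both sides of 0 in the co-receptor, heparan sulfate, transducer and feedback lists. The single tested gene among the other ligand-family genes, Fgf13, was not called.

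Markers of other cell types moved beside these results. As a background, 18.8% of all tested genes were called higher and 15.1% lower. All 7 cycling markers, all 8 sebaceous markers and all 8 suprabasal markers were higher in PRC1 i2KO, as were 6 of 7 markers of basal epidermis and infundibulum, whose summed level went from 271 and 302 CPM to between 5433 and 6280 CPM. Summed cycling markers were at 44.1 and 55.5 CPM in the controls, against 438 to 627 CPM in PRC1 i2KO, sebaceous markers at 444 and 452 CPM against 3002 to 3537 CPM (Awat1 was at 0 in Control), and suprabasal markers at 1071 and 1082 CPM against 2092 to 2966 CPM. Of 6 hair germ and matrix markers 2 were higher and 1 lower, with sums of 281 and 317 CPM in the controls, against 297 to 411 CPM in PRC1 i2KO. Endothelial markers summed to at most 5.90 CPM in any library (Cdh5 and Emcn were at 0 in Control), and immune markers to between 6.95 and 12.2 CPM (Lyz2 was at 0 in every library, and Cd79a in Control). Of 3 tested endothelial and 4 tested immune markers, edgeR called 0, with 0 at an unadjusted p under 0.05 and 0 called by DESeq2. Of 6 melanocyte markers Dct was higher and Mitf lower, with sums of 155.9 and 169 CPM in the controls, against 63.1 to 67.7 CPM in PRC1 i2KO. Mitf made up most of each sum, at 163 and 151 CPM in the controls and between 39.1 and 41.2 CPM in PRC1 i2KO. Dct, Tyrp1, Pmel and Tyr (at 0 in Control) were each above both controls in every PRC1 i2KO library, and of these Dct alone was called. The part of any of these cell types in the changes of FGF genes was not tested.

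**Figure D5:**
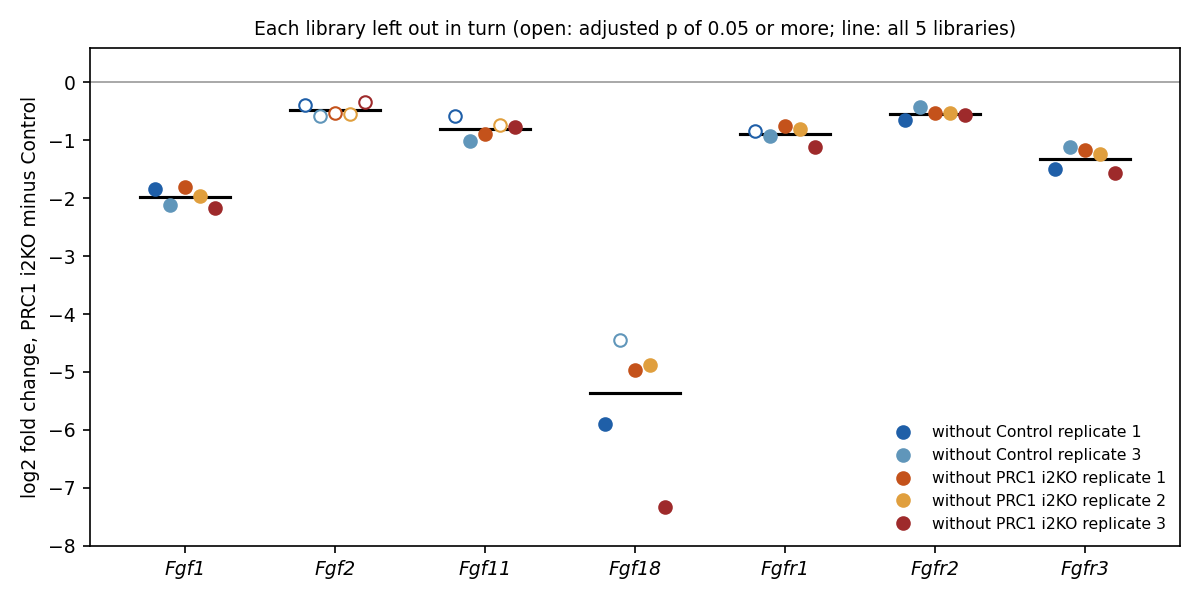
log2 fold change of the 7 tested members other than Fgf22 with each library left out in turn (filled: edgeR adjusted p under 0.05; black line: all 5 libraries). Every value is below 0, the Fgf18 values run from -7.33 to -4.46, and open points mark the calls lost for Fgf11, Fgf18 and Fgfr1 beside those of Fgf2, which was never called.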

How the data were processed

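The authors deposited, per the file headers, a table with a count column and a TPM column for each of 5 libraries of sorted skin cells. The deposited counts are expected counts (9.06% of genes have a fractional value), and the TPM values were scaled by the authors to gene length and a fixed total. Tools listed in the submitters' processing notes, without a role, are DESeq2 1.38.2, RSEM 1.3.3 and STAR 2.7.9a, with the build mm39. The annotation used and the strand setting were not given in the sources used here, so reads of overlapping or antisense genes cannot be told apart.

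Counts were rounded, filtered with filterByExpr, scaled by TMM (factors 0.983 to 1.02) and fitted in R 4.3.3 by edgeR 4.0.16 (quasi-likelihood F test, robust, genotype as the only term, all 5 libraries). Benjamini-Hochberg adjustment ran over 15665 genes. The SE is the fold change divided by the root of F. Alternatives used DESeq2 1.42.0, limma 3.58.1 on TPM, other scalings and filters, and left out each library. Libraries of a group differed by more than counting noise (chi-square divided by its degrees of freedom, 10.3 to 42.6).

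Members and lists were chosen with earlier results of these data known. Named genes are the 10 members, up to 4 called genes with the smallest adjusted p from each pathway list (or, with none called, the 2 most abundant), the 3 genes nearest to each of 3 members, and Rnf2 and Ring1; others are marked. The control whose title carries number 3 has another number in its description.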

Additional observations from a re-analysis of the deposited data

How the results depend on the processing

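For the 6 called members, the fold change was negative in all 78 values over 13 alternatives, and 70 of these were calls; the 8 lost calls were those of Fgf11 (5), Fgf18 (2) and Fgfr1 (1). Leaving out 1 library gave 4 to 6 members called lower, and 0 higher in every alternative run. The sign of Fgf22 was unsettled: its log2 fold change was -0.055 with DESeq2, -0.034 without a filter on low counts, -0.095 and -0.55 on log2(TPM + 1) and log2(TPM + 0.1), and between -0.56 and 0.63 with 1 library left out (it was not tested without PRC1 i2KO replicate 3 or under the stricter filter).

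Over all genes, 1963 to 3099 were higher and 1359 to 2757 lower with 1 library left out (lowest without Control replicate 3), and 1696 and 1744 were higher on log2(TPM + 1) and log2(TPM + 0.1). With 1 library left out, 2 to 5 heparan sulfate genes were lower, 0 to 4 transducers higher and 1 to 4 lower, and 3 to 5 feedback and target genes lower. On both TPM scales 1 heparan sulfate gene and 0 transducers were higher. The cause of these shifts was not tested.

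Replicate numbers shared by the groups did not mark pairs by any label. Deviations from the group means correlated at 0.0737 for number 1 and 0.115 for number 3, against 0.0432 for Control 1 with PRC1 i2KO 2. With 2 controls, the deviations of each control mirror those of the other, so these values cannot decide whether pairs exist. A fit with the replicate number as a block gave PRC1 i2KO replicate 2 a term of its own, as Control has no number 2. That library therefore added nothing to the comparison in this fit. With the replicate block, 5 members were called lower (the edgeR adjusted p of Fgf11 was 0.0835), 2 transducers were lower, 2521 genes were higher and 1900 lower in all, and the log2 fold change of Fgf22 was -0.092. Low counts limit what can be read from Fgf22, Fgfr4 and Fgf5, which had at most 22 reads in a library.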
